A study of Homo sapiens with 6 samples.

Results

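The genes described here are the transcriptional effectors of the Hippo pathway and 4 of their best known targets, 10 genes out of the 23569 in the table. They were chosen by symbol: the coactivators YAP1 and WWTR1 (the gene of TAZ), the DNA-binding partners TEAD1, TEAD2, TEAD3 and TEAD4, and the target genes CCN1, CCN2, AMOTL2 and ANKRD1. All 10 were listed and all 10 passed the filter on low values. RNA was sequenced from TFK1, a human cholangiocarcinoma cell line, in 6 libraries without further treatment. The oeNC group (n = 3) held TFK1 cells carrying a negative control, and the oeSTUB1 group (n = 3) held TFK1 cells overexpressing STUB1, the E3 ubiquitin ligase also called CHIP. Stable lines of the study were made by lentiviral transduction with the pHAGE vector and puromycin selection. As far as the methods tell, each group is 1 selected population, so a difference between the populations and an effect of STUB1 overexpression cannot be told apart. It was not stated whether the 3 libraries of a group came from separate cultures, and p-values then measure only the spread between these libraries.

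In the Hippo pathway, a cascade of the kinases MST1 and MST2 (genes STK4 and STK3) and LATS1 and LATS2 phosphorylates YAP and TAZ and keeps them out of the nucleus. When the cascade is inactive, YAP and TAZ enter the nucleus, bind TEAD factors and switch on genes of growth, adhesion and matrix. In the bile duct, YAP is known for its part in the fate of cholangiocytes and in their malignant growth. The pathway acts mainly through phosphorylation and location of its proteins, which transcript levels do not measure.

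TEAD factors read the short element GGAATG, or CATTCC on the other strand. The letters were searched on both strands in a window of 300 bases, from 250 before to 50 after the start site, in RefSeq promoters of GRCh38.p14. The table held 10 promoters of 7 members, and 4 of these 10 promoters, 1 each of YAP1, CCN2, AMOTL2 and ANKRD1, held the element, against 14.0% of all 35116 promoters. CCN2 had 3 copies, where 0.125% of all promoters had 3 or more, and ANKRD1 had 2, where 1.36% had 2 or more. Promoters of CCN1, TEAD1 and TEAD4 were not among those given, so these genes were not searched. A match of letters is a description and not evidence of binding. The 250 bases before the start site are shown for the 3 target genes that held the element, because these genes carry the readout of the pathway described below. Each is written 5′ to 3′ on the minus strand, with the element in capitals.
CCN2, chr6:131951373-131951622: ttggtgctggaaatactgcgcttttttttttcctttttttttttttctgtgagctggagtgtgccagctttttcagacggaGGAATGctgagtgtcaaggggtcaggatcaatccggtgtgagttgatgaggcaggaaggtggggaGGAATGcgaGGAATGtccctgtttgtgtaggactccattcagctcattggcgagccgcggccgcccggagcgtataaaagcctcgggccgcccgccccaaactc
ANKRD1, chr10:90921088-90921337: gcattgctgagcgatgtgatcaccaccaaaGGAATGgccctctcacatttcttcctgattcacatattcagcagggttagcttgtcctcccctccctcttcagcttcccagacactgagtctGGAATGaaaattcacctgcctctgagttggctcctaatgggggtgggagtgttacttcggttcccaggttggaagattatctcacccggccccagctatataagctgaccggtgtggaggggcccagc
AMOTL2, second of 2 start sites, chr3:134374448-134374697: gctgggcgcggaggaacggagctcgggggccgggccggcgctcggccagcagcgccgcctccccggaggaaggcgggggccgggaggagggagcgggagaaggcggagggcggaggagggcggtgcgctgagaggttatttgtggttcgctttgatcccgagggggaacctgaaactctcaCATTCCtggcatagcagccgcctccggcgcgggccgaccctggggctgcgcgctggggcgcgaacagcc
Counting the base just before the start site as -1, the 3 copies of CCN2 began at -169, -104 and -95. The 2 copies of ANKRD1 began at -220 and -128, and the single copy of AMOTL2 at -69, in the orientation CATTCC.

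Expression is given in FPKM, which divides the fragments of a gene by its length and by the library total. It does not remove a shift with gene length that differs between libraries, such as that of oeSTUB1-2 below. Library totals recovered from the steps of the values lay between 33106564 and 36744521 fragments. The overexpressed gene STUB1 rose from 32.3 ± 1.23 to 66.1 ± 7.70 FPKM (SD, n = 3 each), a log2 difference of 1.03 (limma, adjusted p = 0.00064), and its groups did not overlap. Among the tested genes 42.6% were lowest and 41.0% highest of their group in oeSTUB1-2, and this library differed with gene length. Genes of at least 6000 bases lay at a median of -0.34 there, on the log2 scale against the mean of the other 2 oeSTUB1 libraries, and genes under 2000 bases at 0.33. Of the 7 biliary epithelial markers, 7 had a mean of at least 1 FPKM, and KRT18 was the most abundant, from 2147 to 4063 FPKM. KRT19, a defining keratin of bile duct cells, was only between 0.374 and 0.529 FPKM in oeNC and between 2.51 and 3.41 in oeSTUB1. The summed biliary markers lay between 7419 and 7996 FPKM in oeNC and between 4724 and 6263 in oeSTUB1, with KRT19 called higher and KRT8, KRT18, EPCAM and CDH1 lower. Fibroblast markers summed to at most 4.05 FPKM in any library, mostly from COL1A1. That gene had 1.07 to 1.95 FPKM in oeNC and 1.93 to 3.68 FPKM in oeSTUB1 and was not called. DCN was 0 in each oeNC library and at most 0.00833 FPKM in oeSTUB1, and FAP was not listed. Endothelial markers summed to at most 0.250 FPKM. Leukocyte markers summed to between 31.5 and 33.2 FPKM in oeNC and between 24.0 and 25.3 in oeSTUB1, mostly from CD68 and CD14. CD68 was called lower, with a log2 difference of -0.50 (limma, adjusted p = 0.003), and the defining leukocyte marker PTPRC was at most 0.280 FPKM. The part of these marker shifts in the results below was not tested, and in bulk RNA a smaller share of cells and less RNA per cell cannot be told apart.

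CCN2 rose and TEAD3 fell after STUB1 overexpression, and the other 8 members did not pass the test. The groups were compared with limma on log2(FPKM + 0.1) over the 15353 genes whose mean reached 0.1 FPKM. A gene was called when its p-value, adjusted by Benjamini-Hochberg, was under 0.05. Of the 10 members, 2 were called, 1 higher and 1 lower, against 13.6% of all genes tested, so the share of called members was close to the background. The number of called members was 0 without oeNC-1, oeNC-2 or oeSTUB1-1, 1 without oeNC-3 (CCN2) and 3 without oeSTUB1-2 (WWTR1, TEAD2 and TEAD3). Of all 15353 genes, 965, 933 and 1407 were called without oeNC-1, oeNC-2 and oeSTUB1-1, 1041 without oeNC-3 and 4112 without oeSTUB1-2. With all 6 libraries the background was 7.01% in the higher direction and 6.59% in the lower direction. No member was called when an absolute log2 fold change over 1 was also asked for, which 5.20% of all genes passed, 2.79% as higher and 2.40% as lower. That count was 0 with limma and with limma-voom on recovered fragments, and also 0 with limma at an unadjusted p under 0.05. Without the fold, 5 members had an unadjusted p under 0.05 in limma and 4 in limma-voom, against 29.7% and 29.9% of all genes. The median log2 fold change of the members was -0.05, and that of all tested genes was 0.02. The members' median was 0.03 without oeNC-3 and 0.06 without oeSTUB1-2, so its sign rested on single libraries. In 5 members the groups did not overlap, namely WWTR1, TEAD2 and CCN2, which lay higher in oeSTUB1, and TEAD3 and ANKRD1, which lay lower. Over all tested genes this held for 38.8%, 21.5% higher and 17.3% lower.

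**Figure D1:**
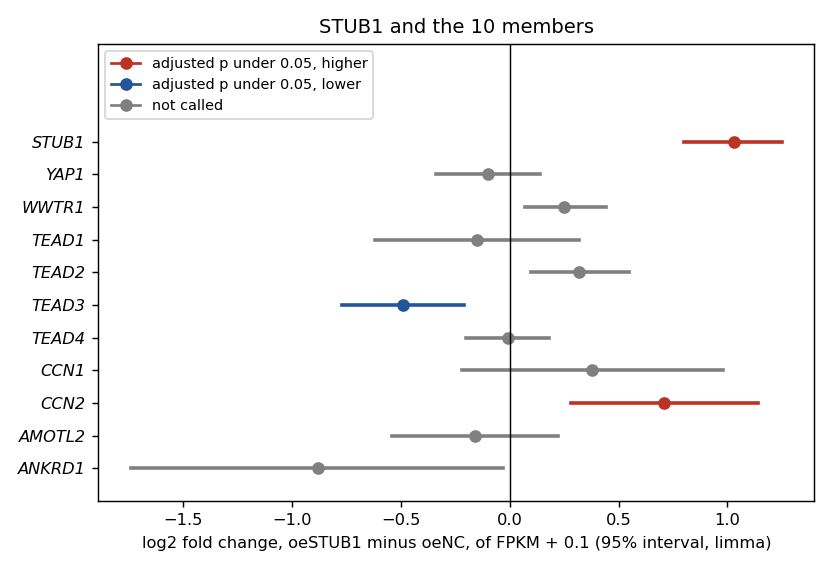
Log2 fold change of FPKM + 0.1 (x axis, oeSTUB1 minus oeNC) of STUB1 and the 10 members (y axis), with 95% intervals from limma (n = 3 libraries per group). Red marks a called rise, blue a called fall and grey no call. The intervals of CCN2 (0.28 to 1.14) and TEAD3 (-0.77 to -0.21) exclude 0 with a call, and those of TEAD1, CCN1 and ANKRD1 are the widest.

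YAP1 is the transcriptional coactivator after which the pathway's output is usually named. The oeNC libraries 1, 2 and 3 held 21.5, 21.8 and 22.7 FPKM of YAP1, and the oeSTUB1 libraries 1, 2 and 3 held 22.6, 17.7 and 21.7 FPKM. The groups overlapped, and oeSTUB1-2 was the lowest of the 6. YAP1 had a log2 fold change of -0.10, with a 95% interval from -0.34 to 0.14 (adjusted p = 0.57 from limma). Without oeSTUB1-2 it was 0.01, so the direction of the small difference rested on that library. YAP1 lies on chromosome 11 from 102110461 to 102233423 (GRCh38, GENCODE release 29, plus strand).

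WWTR1 encodes TAZ, the paralog of YAP. It was the most abundant of the 10 transcripts in every library. Its expression was 47.7, 46.4 and 49.0 FPKM in oeNC-1 to 3 and 55.9, 53.4 and 61.6 FPKM in oeSTUB1-1 to 3. Every oeSTUB1 library lay above every oeNC library. Its difference of 0.25 on the log2 scale (95% interval 0.07 to 0.44) missed the threshold after adjustment (adjusted p = 0.078 from limma). It passed without oeSTUB1-2, with 0.30 (adjusted p = 0.0081 from limma), and adjusted p-values ranged from 0.0081 to 0.27 over the 17 alternatives. WWTR1 lies on the minus strand of chromosome 3 from 149517235 to 149736714.

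The balance between the 2 coactivators differed between the groups. WWTR1 FPKM divided by YAP1 FPKM was 2.21, 2.13 and 2.16 in oeNC-1 to 3 and 2.47, 3.02 and 2.83 in oeSTUB1-1 to 3. All 3 ratios of the oeSTUB1 libraries lay above those of oeNC, with means of 2.17 ± 0.0451 and 2.77 ± 0.283 (SD, n = 3 each). No test was made of this ratio, since its genes were chosen with results of these data known. The recovered lengths of the 2 genes were 5781 bases for WWTR1 and 6210 for YAP1. The highest ratio was that of oeSTUB1-2, the library that differed with gene length. The part of gene length in the ratio was not tested. The share of YAP1 in the summed FPKM of both was between 31.1% and 32.0% in oeNC and between 24.9% and 28.8% in oeSTUB1. The sum itself was 69.2, 68.2 and 71.7 FPKM in oeNC and 78.5, 71.0 and 83.3 in oeSTUB1, with overlapping groups.

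**Figure D2:**
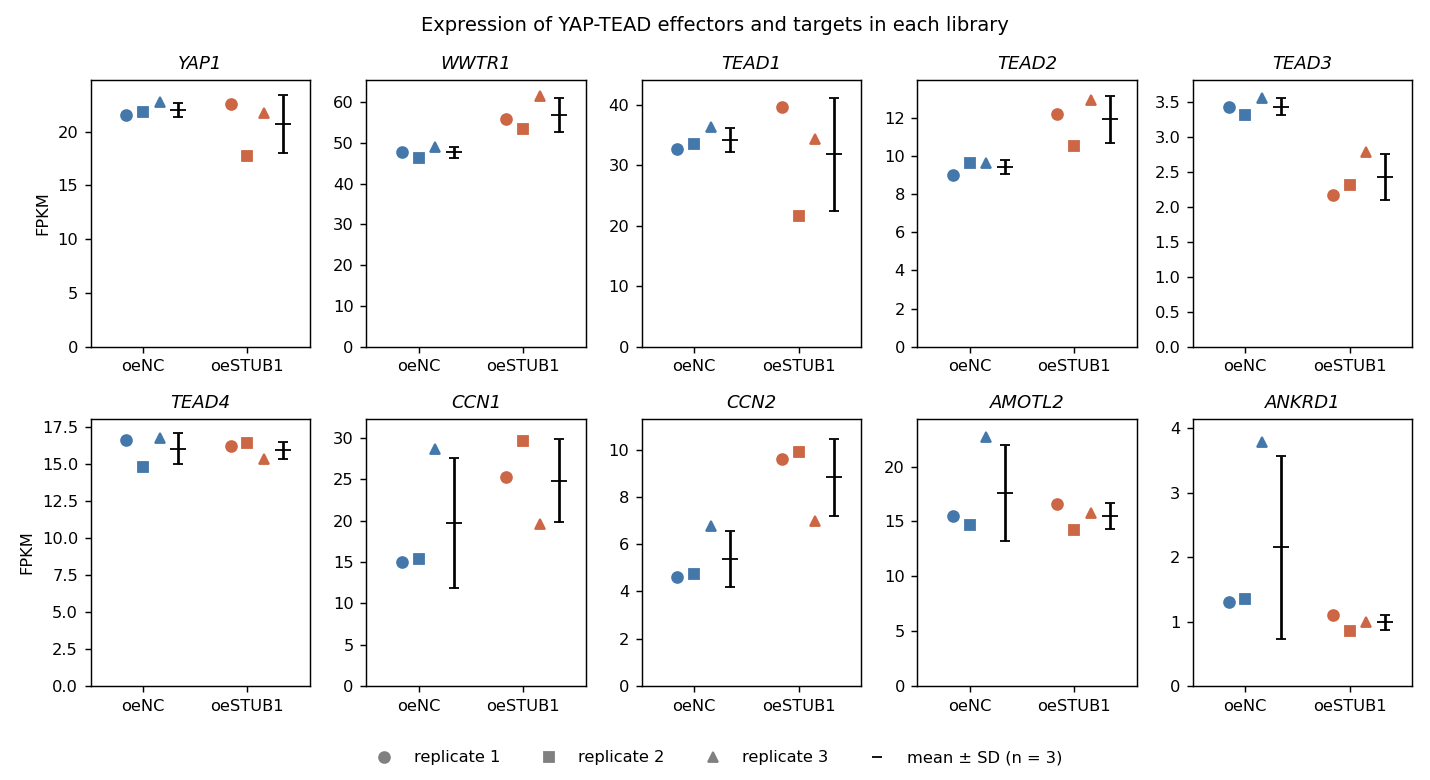
FPKM (y axis, linear from 0) of each member in the oeNC (blue) and oeSTUB1 (orange) libraries, with circles, squares and triangles for replicates 1, 2 and 3 and black marks for the mean ± SD (n = 3). The target genes CCN1, AMOTL2 and ANKRD1 show 1 oeNC library, replicate 3, well above the other 2, while TEAD1 and YAP1 show oeSTUB1 replicate 2 below the rest.

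The 4 TEAD genes encode the DNA-binding factors through which YAP and TAZ reach the genome, and they differed among themselves. TEAD1 was the most abundant, followed by TEAD4, TEAD2 and TEAD3, in every library. The differences between neighbours in this order were larger than the SD in both groups, except that oeSTUB1-2 brought TEAD1 (21.6 FPKM) close to TEAD4 (16.4 FPKM).
TEAD1 had 32.7, 33.5 and 36.4 FPKM in oeNC and 39.6, 21.6 and 34.3 FPKM in oeSTUB1. Its groups overlapped, with both the highest and the lowest value in oeSTUB1. Limma gave a log2 fold change of -0.15 (95% interval -0.62 to 0.32, adjusted p = 0.67), and 0.11 without oeSTUB1-2. TEAD1 had the longest recovered length of the members, 9417 bases, and oeSTUB1-2 was low over long genes in general. The part of gene length in the TEAD1 value of oeSTUB1-2 was not tested.
TEAD2 held 9.01, 9.64 and 9.60 FPKM in oeNC and 12.2, 10.5 and 12.9 FPKM in oeSTUB1, and the lowest oeSTUB1 library lay above the highest oeNC library. Its log2 difference of 0.32 (95% interval 0.10 to 0.55) had an adjusted p of 0.066 from limma. Without oeSTUB1-2 it was 0.41 (adjusted p = 0.0035 from limma), within a range of 0.0035 to 0.22 over the alternatives. TEAD2 exons overlap those of CD37 on the opposite strand. Since use of strand in the counting was not stated, reads of the 2 genes cannot be told apart there. The same holds for short stretches of YAP1, WWTR1 and CCN2, each overlapped by an antisense gene.

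TEAD3, the least abundant TEAD, was the member that fell. The oeNC libraries had 3.43, 3.32 and 3.57 FPKM and the oeSTUB1 libraries 2.17, 2.32 and 2.79 FPKM. In fragments these were 363, 351 and 400 against 228, 234 and 291. All oeSTUB1 libraries lay below all oeNC libraries. TEAD3 fell by 0.49 on the log2 scale, with a standard error of 0.12 and a 95% interval from -0.77 to -0.21 (adjusted p = 0.034 from limma). TEAD3 lay lower in each of the 17 alternatives, with log2 fold changes from -0.60 to -0.38, and passed the threshold in 10 of them (adjusted p from 0.014 to 0.12). Leaving out oeNC-1, oeNC-2, oeNC-3 or oeSTUB1-1 ended the call. It lies on the minus strand of chromosome 6 from 35473597 to 35497076.
TEAD4, in contrast, had 16.6, 14.8 and 16.7 FPKM in oeNC and 16.2, 16.4 and 15.3 FPKM in oeSTUB1. TEAD4 had a log2 fold change of -0.01, and its 95% interval from -0.20 to 0.18 was the second narrowest of the 10 members. A change of TEAD4 larger than this interval was not detected, in either direction.

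Expressed as shares of the summed TEAD FPKM, TEAD2 made up 14.6%, 15.7% and 14.5% in oeNC and 17.4%, 20.7% and 19.7% in oeSTUB1. TEAD3 made up 5.56%, 5.42% and 5.39% in oeNC and 3.10%, 4.57% and 4.28% in oeSTUB1. Both shares separated the groups, in opposite directions. TEAD2 had its highest share in oeSTUB1-2, where its 10.5 FPKM was the lowest of the oeSTUB1 libraries and the TEAD1 share was 42.5%. Recovered lengths ran from 1723 bases for TEAD4 to 9417 for TEAD1, and oeSTUB1-2 differed with gene length. The shares of TEAD1 (52.9% to 54.9% in oeNC, 42.5% to 56.4% in oeSTUB1) and of TEAD4 overlapped. Summed over the 4 genes, TEAD expression came to 63.1 ± 2.72 FPKM for oeNC and to 62.0 ± 10.1 FPKM for oeSTUB1 (SD, n = 3 each), and the means differed by less than either SD. These shares are a description without a test.

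**Figure D3:**
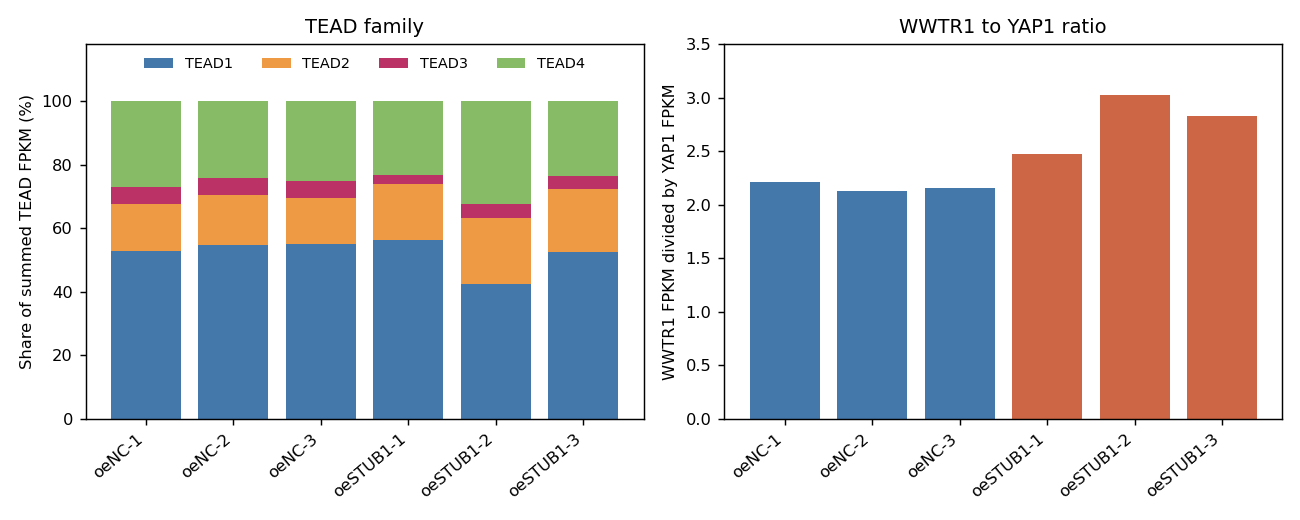
Left, the share of each TEAD gene in the summed FPKM of the 4 TEAD genes (y axis, percent) in each library. Right, WWTR1 FPKM divided by YAP1 FPKM (y axis, from 0) in the oeNC (blue) and oeSTUB1 (orange) libraries. The TEAD3 band is thinner in each oeSTUB1 library, and the ratio lies between 2.13 and 2.21 in oeNC and between 2.47 and 3.02 in oeSTUB1.

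CCN2, which encodes connective tissue growth factor, is a secreted matricellular protein gene and the most widely used readout of YAP and TEAD. It was the member that rose. Its expression was 4.62, 4.75 and 6.75 FPKM in oeNC-1 to 3 and 9.60, 9.91 and 6.96 FPKM in oeSTUB1-1 to 3. The groups were separated by a narrow gap, because oeNC-3 was the highest control and oeSTUB1-3 the lowest library with STUB1. The fragments were 375, 385 and 580 against 773, 767 and 556. The mean was 1.64-fold higher in oeSTUB1, with a difference of 0.71 on the log2 scale, a standard error of 0.19 and a 95% interval from 0.28 to 1.14 (adjusted p = 0.043 from limma). CCN2 lay higher in all 17 alternatives, with log2 fold changes from 0.61 to 0.88, and passed the threshold in 10 of them (adjusted p from 0.015 to 0.16). Leaving out oeNC-3 gave 0.88 (adjusted p = 0.031 from limma). Leaving out oeNC-1, oeNC-2, oeSTUB1-1 or oeSTUB1-2 ended the call. CCN2 lies on the minus strand of chromosome 6 from 131948176 to 131951373.

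CCN1, the matricellular gene also known as CYR61, was expressed at 15.0, 15.3 and 28.7 FPKM in oeNC and at 25.3, 29.6 and 19.6 FPKM in oeSTUB1. The libraries oeNC-1 and oeNC-2 lay below every oeSTUB1 library, whereas oeNC-3 lay above 2 of the 3, so that the groups overlapped. CCN1 had a log2 fold change of 0.38 with a 95% interval from -0.22 to 0.98 (adjusted p = 0.37 from limma). Without oeNC-3 it was 0.69, still short of the threshold (adjusted p = 0.07 from limma). With both oeNC-3 and oeSTUB1-2 left out, a choice made after the data were seen, it was 0.55 (adjusted p = 0.021 from limma, the lowest of a range from 0.021 to 0.69). CCN1 lies on the plus strand of chromosome 1 from 85580761 to 85583962.

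AMOTL2 encodes an angiomotin that binds YAP and holds it in the cytoplasm, and is itself a YAP target. It had 15.5, 14.7 and 22.7 FPKM in oeNC and 16.6, 14.2 and 15.8 FPKM in oeSTUB1. Apart from oeNC-3, the 5 libraries lay between 14.2 and 16.6 FPKM. AMOTL2 had a log2 fold change of -0.16 (95% interval -0.54 to 0.22, adjusted p = 0.56 from limma) and 0.04 without oeNC-3.
ANKRD1, an ankyrin repeat protein of the nucleus and the sarcomere, had the lowest mean of the members in both groups. The oeNC libraries held 1.30, 1.35 and 3.79 FPKM and the oeSTUB1 libraries 1.10, 0.861 and 0.997 FPKM. All oeSTUB1 values lay below all oeNC values, but the distance was small next to that of oeNC-3 from its own group. The fragments behind these values were 81, 84 and 249 in oeNC and 68, 51 and 61 in oeSTUB1. Its log2 difference of -0.88 (95% interval -1.74 to -0.03) did not pass after adjustment (adjusted p = 0.16 from limma), and without oeNC-3 it was -0.40 (adjusted p = 0.22 from limma). ANKRD1 lay lower in each of the 17 alternatives, and none passed the threshold (adjusted p from 0.1 to 0.26).

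Between the groups, CCN2 was the 1 target member that passed the test. In oeNC-3 the 4 target members were all the highest of their group. ANKRD1 was 2.85 times the mean of oeNC-1 and oeNC-2, CCN1 1.89 times, AMOTL2 1.50 times and CCN2 1.44 times. On the log2(FPKM + 0.1) scale these deviations were 1.44, 0.91, 0.58 and 0.52, and each lay above the 95th percentile of all tested genes in that library, 0.49. The 6 coactivator and TEAD genes deviated by 0.04 to 0.14 in the same library. Being highest of the group in oeNC-3 was common over the table, at 42.9% of tested genes, and the 4 target genes differed from the 6 factors by the size of the deviation.
Of the 18 other YAP-TEAD targets described below, 8 were highest in oeNC-3 and 7 lowest, with a median deviation of 0.03. JUN and NUAK2 were looked at after their values had been seen. JUN, an AP-1 factor that works with TEAD at many sites, had 4.09, 4.48 and 11.3 FPKM in oeNC-1 to 3, and NUAK2, a kinase of the AMPK family, 15.0, 15.8 and 22.8 FPKM.

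**Figure D4:**
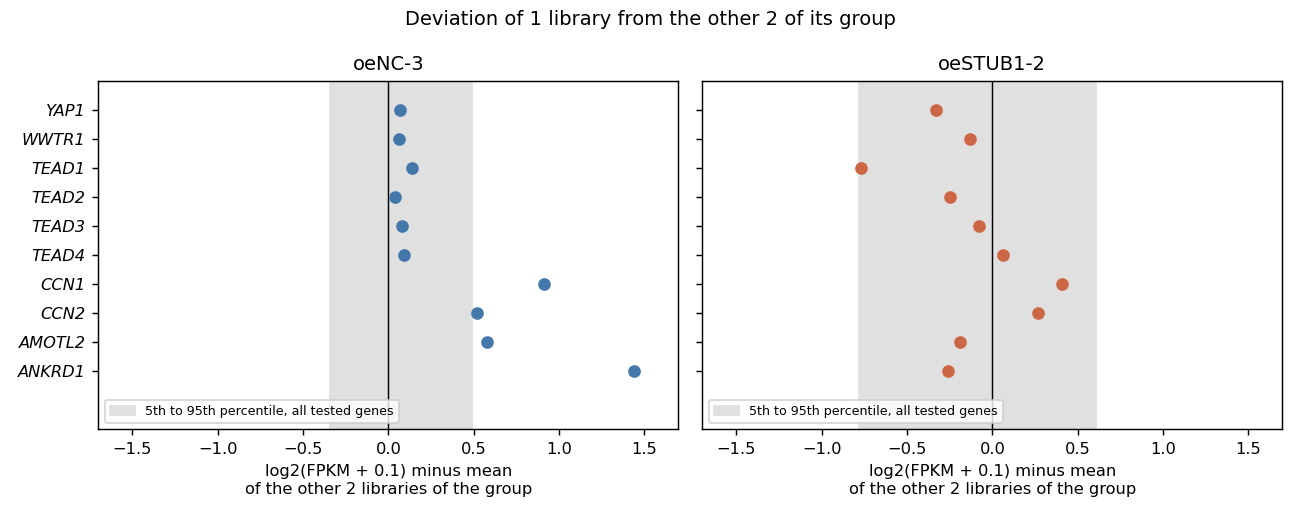
Difference in log2(FPKM + 0.1) (x axis) between 1 library and the mean of the other 2 libraries of its group, for each member (y axis), in oeNC-3 (left) and oeSTUB1-2 (right). The grey band spans the 5th to the 95th percentile of all 15353 tested genes. In oeNC-3 the 4 target genes lie right of the band, from 0.52 to 1.44, and in oeSTUB1-2 the members lie within it.

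In oeSTUB1-2, 6 of the 10 members were the lowest of their group, against 42.6% of all tested genes, and 3 were the highest, against 41.0%. TEAD1 deviated most, by -0.77, followed by CCN1 with 0.41 and YAP1 with -0.33. Over the genes of at least 6000 bases 79.0% were lowest in this library, and TEAD1 and YAP1 are both of that length. The part of gene length in their deviations was not tested. With a correction of each library for gene length, added after the data were seen, the log2 fold changes were -0.07 for TEAD1 and for YAP1, 0.27 for WWTR1 (adjusted p = 0.013 from limma), -0.53 for TEAD3 (adjusted p = 0.014 from limma) and 0.65 for CCN2 (adjusted p = 0.025 from limma).

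The upstream side of the pathway was described by 26 genes of the Hippo kinase cascade and of proteins that regulate YAP and TAZ. Of these, 25 were tested (DCHS1 was below the filter), 3 rose and 2 fell, and 20 did not pass, against backgrounds of 7.01% higher and 6.59% lower. The median log2 fold change was -0.05, but 0.02 without oeSTUB1-2, and from -0.13 to -0.02 when another library was left out. The core kinases and their adaptors were among those that did not pass, with log2 fold changes of 0.17 for STK3, -0.20 for STK4, 0.03 for SAV1, 0.01 for LATS1, 0.12 for LATS2, -0.12 for MOB1A and -0.05 for MOB1B. Without oeSTUB1-2 the values were -0.02 for STK4, -0.01 for MOB1A and 0.17 for LATS1. The 95% interval of LATS1 ran from -0.35 to 0.38 and that of LATS2 from -0.13 to 0.37. LATS2 had 3.78, 3.83 and 4.17 FPKM in oeNC and 4.75, 3.89 and 4.20 FPKM in oeSTUB1, with overlapping groups.
FAT4, a giant protocadherin that acts at the cell surface upstream of the cascade, fell most. It had 2.53, 2.95 and 2.71 FPKM in oeNC and 1.26, 0.394 and 1.08 FPKM in oeSTUB1, with a log2 difference of -1.61 (limma, adjusted p = 0.022). The groups lay far apart, and oeSTUB1-2 was the lowest library. Without oeSTUB1-2 the log2 difference of FAT4 was -1.16 (adjusted p = 0.00078 from limma). AMOTL1, an angiomotin that binds YAP like AMOTL2, had 10.3, 10.4 and 10.7 FPKM in oeNC and 5.51, 3.03 and 5.82 FPKM in oeSTUB1 (log2 fold change -1.17, adjusted p = 0.014 from limma). Without oeSTUB1-2 that of AMOTL1 was -0.88 (adjusted p = 0.00013 from limma). FAT4 and AMOTL1 had recovered lengths of 17188 and 10073 bases, and oeSTUB1-2 was low over long genes. The part of gene length in their differences was not tested. The third angiomotin, AMOT, was at most 0.226 FPKM in each library. In these cells AMOTL2 was therefore the most abundant angiomotin in both groups.
The 3 regulators that rose did so by less than 1 on the log2 scale. FRMD6, a FERM domain protein that supports the cascade, had 1.82, 2.03 and 1.99 FPKM in oeNC and 3.26, 2.67 and 2.60 FPKM in oeSTUB1 (log2 fold change 0.52, adjusted p = 0.033 from limma). AJUBA, a LIM protein that binds LATS kinases, had 10.6, 10.6 and 13.3 FPKM and then 16.1, 17.4 and 14.3 FPKM (0.47, adjusted p = 0.038 from limma). NF2, whose product merlin recruits LATS kinases to the membrane, had 3.96, 4.28 and 3.51 FPKM and then 5.80, 5.05 and 5.04 FPKM (0.43, adjusted p = 0.043 from limma). In all 3 the groups did not overlap. This held for 11 of the 25 tested regulators, 5 higher and 6 lower. Over all tested genes it held for 38.8%, 21.5% higher and 17.3% lower. When 1 library was left out, the call of NF2 and of FRMD6 remained in 1 of 6 fits each and those of AJUBA, FAT4 and AMOTL1 in 3 of 6 each.

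The downstream side was described by 18 further genes known as YAP targets, listed without the members and sharing LATS2 and PTPN14 with the regulators. All 18 were tested, 6 rose and 0 fell in limma (6 called with limma-voom), against a background of 7.01% higher and 6.59% lower. The groups did not overlap in 7 of the 18, 6 higher and 1 lower, against 21.5% higher and 17.3% lower over all tested genes. The 1 lower gene, IGFBP3, had an adjusted p of 0.059 from limma with a log2 fold change of -0.28. The median of the list was 0.08, with 12 genes above 0 and 6 below. It was 0.18 without oeSTUB1-2, 0.14 without oeNC-3, 0.05 without oeNC-1 and 0.01 without oeSTUB1-1. CCDC80, a secreted matrix protein gene, had 4.63, 4.49 and 3.29 FPKM in oeNC and 12.5, 9.91 and 10.5 FPKM in oeSTUB1 (log2 fold change 1.39, adjusted p = 0.0012 from limma). TGFB2, a ligand of the TGF-beta family, had 4.98, 4.87 and 4.54 FPKM and then 11.7, 8.47 and 11.2 FPKM (1.10, adjusted p = 0.0018 from limma). Both changed by more than the spread within either group, and both were called in all 17 alternatives.
FJX1, a secreted kinase homolog of the Drosophila four-jointed protein, changed by 0.67, FOXF2, a forkhead transcription factor, by 0.51 and CRIM1, a membrane protein that binds BMPs, by 0.46 (adjusted p between 0.012 and 0.048 from limma). RBMS3, an RNA-binding protein gene, was also called at a mean of 0.337 FPKM in oeSTUB1. It is named although it was too low for the naming rule. When 1 library was left out, the call remained in 4 of 6 fits for FJX1, 2 of 6 for FOXF2 and 1 of 6 each for CRIM1 and RBMS3. Among the targets that did not pass, MYOF, AXL and F3 had log2 fold changes of -0.29, -0.19 and -0.26. MYOF, which encodes myoferlin, had 63.1, 63.4 and 62.3 FPKM in oeNC against 64.4, 35.4 and 59.2 FPKM in oeSTUB1, and its value was -0.03 without oeSTUB1-2. That of F3, the gene of tissue factor, was 0.00 without oeSTUB1-3. AXL, a receptor tyrosine kinase often cited as a YAP target, had 34.3, 32.4 and 33.7 FPKM in oeNC and 33.1, 29.1 and 26.3 FPKM in oeSTUB1. The number of called targets was 2 without oeNC-2 or oeNC-3, 3 without oeNC-1 or oeSTUB1-1, and 8 without oeSTUB1-2. The calls over all 15353 tested genes moved too. They numbered 933 without oeNC-2, 1041 without oeNC-3, 965 without oeNC-1, 1407 without oeSTUB1-1 and 4112 without oeSTUB1-2.

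**Figure D5:**
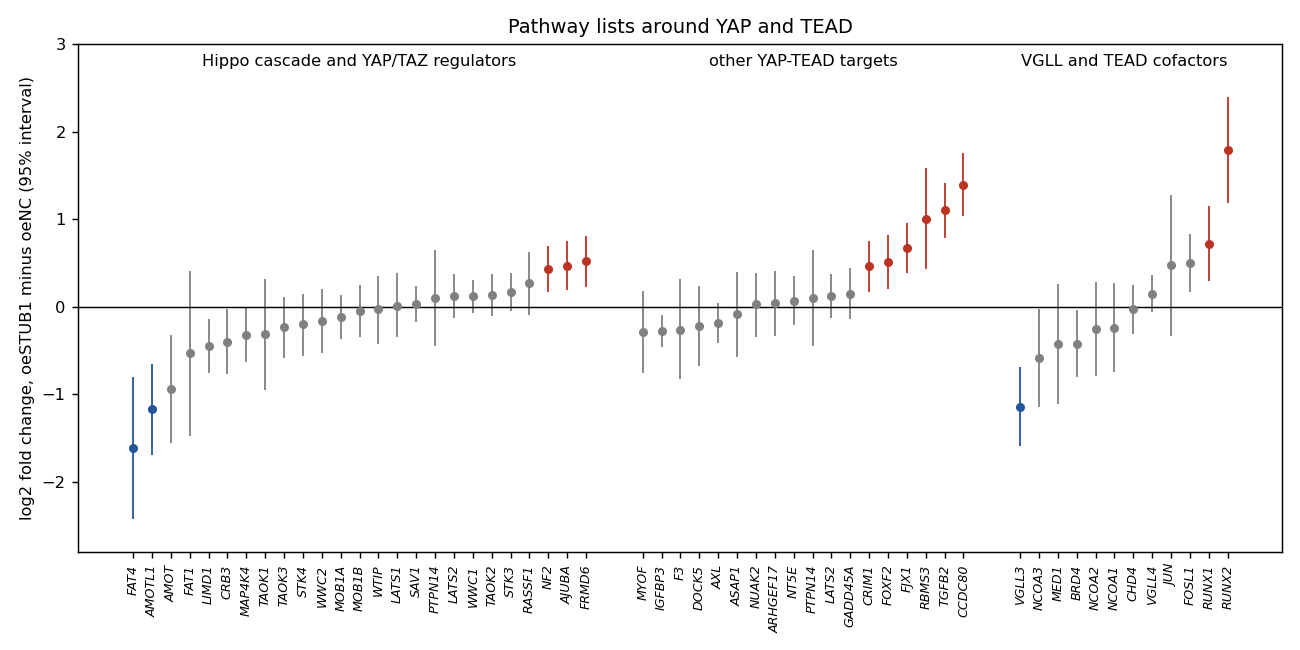
Log2 fold change (y axis, oeSTUB1 minus oeNC, with 95% intervals from limma, n = 3 libraries per group) of the tested genes of the 3 pathway lists, ordered by value within each list (x axis). Red marks called rises, blue called falls and grey no call. In the list of other targets 6 genes are red and none is blue, with CCDC80 at 1.39 and TGFB2 at 1.10, and the rest are grey.

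Factors that share TEAD with YAP were described by 14 genes of VGLL proteins and other partners, of which 12 were tested, 2 rose and 1 fell, against 13.6% of all genes called, 7.01% higher and 6.59% lower. Their median log2 fold change was -0.14, and 0.07 without oeSTUB1-2. In 7 of the 12 the groups did not overlap, 4 higher and 3 lower, against 21.5% higher and 17.3% lower over all tested genes. VGLL1 was not listed and VGLL2 was below the filter. VGLL3, which competes with YAP for the same surface of TEAD, fell from 4.47, 5.11 and 4.90 FPKM in oeNC to 2.69, 1.54 and 2.35 FPKM in oeSTUB1. Its log2 difference was -1.14 (limma, adjusted p = 0.0079), every oeSTUB1 library lay below every oeNC library, and VGLL3 was called in all 17 alternatives. Its recovered length was 11600 bases, and without oeSTUB1-2, the library low over long genes, the difference was -0.91 (adjusted p = 0.00093 from limma). VGLL4, the family member known as a repressor of TEAD, had 7.61, 6.94 and 7.26 FPKM in oeNC and 7.89, 7.62 and 8.72 FPKM in oeSTUB1 (0.15, adjusted p = 0.32 from limma). RUNX1, a RUNX factor that can bind YAP and TAZ, had 1.11, 1.35 and 1.37 FPKM and then 2.67, 1.65 and 2.28 FPKM (0.72, adjusted p = 0.041 from limma). Its call remained in 1 of the 6 fits without 1 library. RUNX2, the third called gene, had a mean of 0.284 FPKM in oeSTUB1 and at most 3 fragments in any oeNC library. It is named although it was too low for the naming rule. FOSL1, an AP-1 factor, lay higher in each oeSTUB1 library with 7.72, 8.77 and 6.07 FPKM against 4.89, 5.19 and 5.63 FPKM (0.50, adjusted p = 0.055 from limma).

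Across the 6 libraries, the genes of mean FPKM of at least 1 whose log2 values followed CCN2 most closely were SHLD3 (Pearson r = 0.995), AJUBA (0.991) and S100A8 (0.989), out of 11375 genes compared. S100A8 had 1.35, 1.43 and 2.70 FPKM in oeNC and 5.28, 4.49 and 3.10 FPKM in oeSTUB1. Its highest control and lowest oeSTUB1 library were those of CCN2, which a choice by correlation over the same libraries favours. Among the members, CCN1 was closest to CCN2 (r = 0.864) and TEAD3 farthest (r = -0.862), while AMOTL2 had r = 0.018 and ANKRD1 r = -0.270. These coefficients describe 6 libraries in 2 groups and share the group difference and the deviation of oeNC-3.

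The members lie on chromosomes 1, 3, 6, 10, 11, 12 and 19. The median log2 fold change of the tested genes on each of these chromosomes was between 0.01 and 0.07, and CCN2 and TEAD3, which moved in opposite directions, both lie on chromosome 6 with a median of 0.01.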

How the data were processed

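The authors deposited 1 table of FPKM values for 23569 genes and 6 libraries, 3 of oeNC and 3 of oeSTUB1 TFK1 cells. The submitters' processing notes name fastp 0.20.1, HISAT2 2.1.0, HTSeq 0.11.2, R 3.2.0, DESeq2 1.22.2 and GRCh38.p13, with no role given. Strand setting and annotation are not given in the sources used here. The labels gave each library its group and replicate number, and 0 value columns belonged to no sample.

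FPKM values are whole multiples of the worth of 1 fragment. Whole fragments were recovered for 100.0% of genes, with recomputed FPKM within 4.9e-06 of the deposited values, although counts and length of a gene are known only up to a factor they share. Recovered library totals were 33106564 to 36744521. Replicates differed by more than sampling noise (chi-square per degree of freedom 3.48 to 82.60), and none was treated as a copy.

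The groups were tested on log2(FPKM + 0.1) in limma 3.58.1 and R 4.3.3 (eBayes with trend, two-sided), over the 15353 genes whose mean reached 0.1 FPKM. Fold changes on this scale understate those of low genes. P-values were adjusted by Benjamini-Hochberg over all 15353 genes, and intervals are 95% intervals. The members and gene lists were chosen with earlier results of these data known, and lists were described by counts and medians without a set test. Named genes are STUB1, the 10 members, the called list genes whose higher group had a mean of 1 FPKM or more (up to 6 per list), the marker genes and the 3 genes closest to CCN2. Other genes named for their values, among them core kinases and list genes that were not called, were chosen after those values were seen. Both the recovery of fragments and the limma test were checked on simulated data.

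The alternatives tried were a pseudocount of 1 or 0.01, a filter of 1 FPKM or none, median-ratio scaling, quantile normalization, eBayes without trend, a replicate block, leaving out each library, and limma-voom on the recovered fragments, which called 2162 genes. A correction for gene length and leaving out oeNC-3 together with oeSTUB1-2 were added after the data were seen. Positions are from GENCODE release 29 on GRCh38, promoters from RefSeq on GRCh38.p14. The figures were drawn with matplotlib 3.10.9 in Python 3.11.15. The other assays of the study were not used here.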

Additional observations from a re-analysis of the deposited data

How the results depend on the processing

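The number of called members, 2 as reported, was 0 without a filter, 1 (TEAD3) with eBayes without trend, 0 with the replicate block, 0 to 3 when 1 library was left out, and 4 (WWTR1, TEAD2, CCN1 and CCN2) with oeNC-3 and oeSTUB1-2 both left out. With the fold threshold the number was 0 in all 17 alternatives. Called regulators, 5 as reported, numbered 2 without a filter, 2 with the replicate block, 8 with the length correction and 0 to 8 when 1 library was left out, the 8 being without oeSTUB1-2. Called targets, 6 as reported, numbered 3 with the replicate block and 2 to 8 when 1 library was left out. Called cofactors, 3 as reported, numbered 6 with the length correction, 6 with both libraries left out, and 2 to 5 when 1 library was left out. Of all tested genes, 2088 were called as reported, 3322 with the length correction, 3641 with both libraries left out, and 933 (without oeNC-2) to 4112 (without oeSTUB1-2) when 1 library was left out. The other settings moved this number too. It was 1799 of 23569 genes without a filter, 1870 of 15353 with eBayes without trend and 1488 of 15353 with the replicate block. STUB1 stayed called in all 17 alternatives.

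Among the members, directions changed only where the difference was small and not called. With both libraries left out the log2 fold changes were 0.03 for YAP1, 0.15 for TEAD1, 0.00 for TEAD4 and 0.10 for AMOTL2. When 1 library was left out they ranged from -0.17 to 0.01 for YAP1, -0.33 to 0.11 for TEAD1, -0.06 to 0.02 for TEAD4 and -0.28 to 0.04 for AMOTL2. WWTR1, TEAD2, TEAD3, CCN1, CCN2 and ANKRD1 kept their direction in all 17 alternatives. With both libraries left out, the medians were 0.13 for the members, 0.04 for regulators, 0.22 for targets and 0.10 for cofactors. The cause of the lost calls was not tested.

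Replicate numbers did not pair the libraries: deviations of same-numbered libraries correlated at -0.0491, -0.0521 and 0.0617, and the replicate block ended the calls of TEAD3 (adjusted p = 0.062 from limma) and CCN2 (adjusted p = 0.086 from limma). Each group has 3 libraries, and ANKRD1, with 51 to 249 fragments, is the member with the fewest.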
